A study of Mus musculus with 48 samples.

Results

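Of the 757 genes measured in mouse cortex with the NanoString Glial panel, 7 carried a symbol beginning with Kcn, the prefix of potassium channel genes: Kcnd1, Kcnd2, Kcnq3, Kcnq5, Kcnab1, Kcnv1 and Kcnk13. They were taken by this prefix, without a cut on their values but with earlier results of these data known. All 7 lay above the limit of 20 normalized counts under which a gene is called dim here. The series holds 48 samples from 24 mice, each mouse assayed on the Glial and on the Neuropathology panel of the nCounter system, which counts single transcripts by fluorescent barcodes without amplification. The groups are 6 females and 6 males labelled 5xFAD Plcg2 KO+/-, called Plcg2 KO het mice below, and 6 females and 6 males labelled 5xFAD. All mice were aged 7.5 months, and all carried the 5xFAD transgenes, mutated human genes of familial Alzheimer disease that a Thy1 promoter expresses in neurons and that lead to early amyloid plaques. Plcg2 encodes a phospholipase C that in the brain is mainly found in microglia, and the mice labelled KO+/- keep 1 working copy. How the knockout allele was made was not given in the sources used here, and mice without the transgenes were not analysed here. Plcg2 was not among the genes of either table, so its own level was not analysed here.

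Potassium channels let potassium leave the cell and thereby set the resting potential and end the action potential. In cortical neurons the channels of the Kcnd family carry the fast, transient A-type current of dendrites, and those of the Kcnq family carry the slow M-current, which holds back repeated firing and is shut when phospholipase C of the beta class, driven by muscarinic receptors, consumes a membrane phospholipid that the channel needs. Other family members modify partner channels, and the tandem-pore channels give the steady leak that sets the resting potential, in microglia among other cells.

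Values are log2 normalized counts as deposited, and differences are Plcg2 KO het minus 5xFAD on that scale with the standard error (SE) of a limma fit to all genes of the panel. Benjamini-Hochberg adjustment ran over those genes, and adjusted p-values under 0.05 made a call. Total counts per mouse on the Glial panel ran from 1773331 to 1897264 in Plcg2 KO het females against 953461 to 1239109 in 5xFAD females, with no overlap. In males the totals were 1360757 to 1814975 in Plcg2 KO het mice against 1428825 to 1775622 in 5xFAD mice. The animal numbers were 3 to 51 in Plcg2 KO het mice and 1177 to 1270 in 5xFAD mice, so genotype cannot be told apart from a cohort or from an assay run. Neuron, astrocyte, microglia and oligodendrocyte markers were all counted in every mouse, as the cortex label requires. Of 8 neuron markers 4 were called higher and 1 lower over both sexes. Averaged over the 8, their level ran from 11.45 to 11.62 in Plcg2 KO het females against 11.14 to 11.39 in 5xFAD females; in males it was 11.67 to 11.85 in Plcg2 KO het mice against 11.77 to 11.85 in 5xFAD mice. All 4 oligodendrocyte precursor markers were called higher (median 0.45), with a mean level of 8.61 to 9.17 in Plcg2 KO het females against 8.22 to 8.52 in 5xFAD females, without overlap, and of 8.83 to 9.49 in Plcg2 KO het males against 8.71 to 9.08 in 5xFAD males. Of 5 endothelial and mural markers 3 were called lower and 1 higher (median -0.25), with a mean level of 7.44 to 7.78 in Plcg2 KO het males against 7.91 to 8.17 in 5xFAD males, without overlap, and of 7.14 to 7.54 in Plcg2 KO het females against 7.02 to 7.41 in 5xFAD females. The part of these marker shifts in the differences of the channel genes was not tested. In whole cortex, fewer cells of a type and less RNA per cell cannot be told apart. Plcg2 KO het female 12 and Plcg2 KO het male 3 deviated from their groups in many genes, and results that change without them are given both ways. Their root mean square deviation over all genes was 0.26 and 0.33 on the Glial panel. There 5xFAD females 1180 (0.34) and 1189 (0.28) deviated about as much and were left out only singly. On the Neuropathology panel female 12 (0.36) and male 3 (0.50) deviated most.

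Over both sexes, 3 of the 7 potassium channel genes were higher in Plcg2 KO het mice (Kcnq3, Kcnd1 and Kcnd2) and 2 were lower (Kcnq5 and Kcnab1). The 5 called differences ran from -0.20 (0.872-fold) to 0.39 (1.31-fold). Among all 757 genes 33.8% were called higher and 26.7% lower, so a call in either direction was common on this panel and the channel genes were called about as often as other genes. The median difference of the 7 was 0.06 and the median size 0.20, against 0.04 and 0.19 over all genes. In females 3 channel genes were called higher and 0 lower, with 34.5% of all genes called higher and 20.3% lower. In males 2 were called higher and 2 lower, with 17.2% of all genes called higher and 23.5% lower. The plot of genotype differences shows that the 3 raised genes had their larger estimate in females and that the 2 lowered genes had theirs in males.

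**Figure D1:**
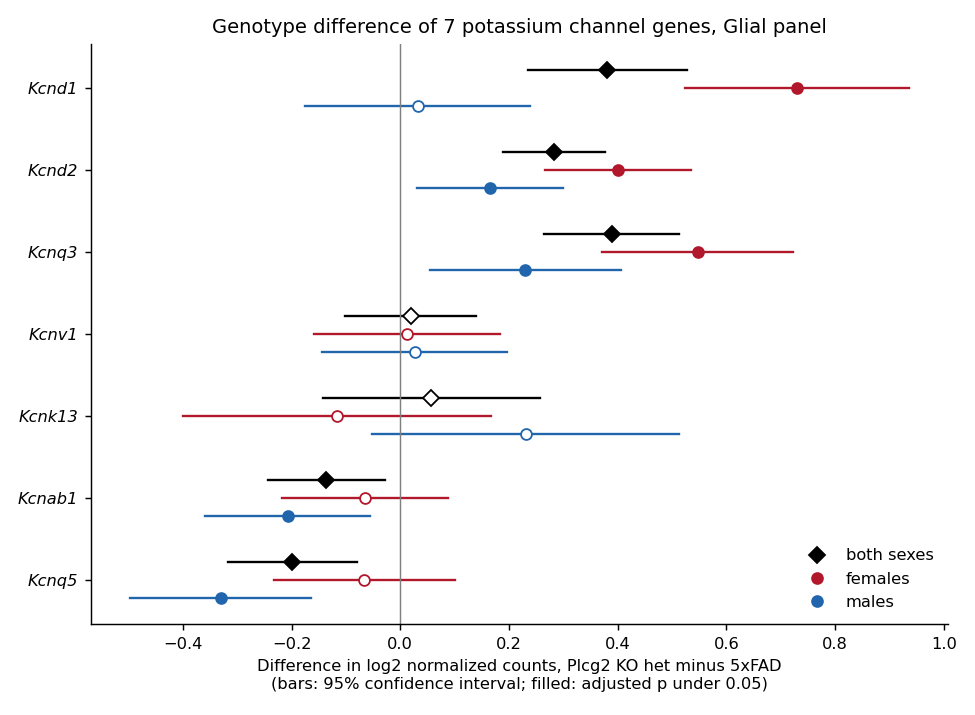
Difference in log2 normalized counts between Plcg2 KO het and 5xFAD mice (x axis) for each of the 7 potassium channel genes of the Glial panel (y axis), over both sexes (diamonds, 12 against 12 mice), in females and in males (circles, 6 against 6), with 95% confidence intervals; filled symbols have an adjusted p under 0.05. Kcnd1 has 0.73 in females and 0.03 in males, while Kcnq5 has -0.07 in females and -0.33 in males.

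Kcnd1 and Kcnd2 encode pore subunits of A-type channels. Kcnd1 ran from 5.85 to 6.40 with a median of 6.06 in Plcg2 KO het females, against 5.05 to 5.60 with a median of 5.45 in 5xFAD females. Among males the values ran from 6.31 to 6.60 with a median of 6.46 in Plcg2 KO het mice, against 6.17 to 6.56 with a median of 6.48 in 5xFAD mice. All 6 Plcg2 KO het females thus lay above every 5xFAD female, whereas the males overlapped, and the 5xFAD females stood below the other 3 groups. By group mean the order was Plcg2 KO het males (6.46 ± 0.12, SD, n = 6), 5xFAD males (6.43 ± 0.15), Plcg2 KO het females (6.10 ± 0.20) and 5xFAD females (5.37 ± 0.22), with overlap between each neighbouring pair except the last.

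The difference of Kcnd1 was 0.73 ± 0.10 in females (1.66-fold, adjusted p = 3.48e-06) and 0.03 ± 0.10 in males (adjusted p = 0.816). Over both sexes it was 0.38 ± 0.071 (adjusted p = 9.26e-05), with 10 of 12 Plcg2 KO het mice above the 5xFAD mean of their sex. Without a sex term in the fit the call over both sexes ended (adjusted p = 0.0815). Kcnd1 was sparsely counted, with 76 to 114 counts before normalization in Plcg2 KO het females against 27 to 40 in 5xFAD females, and with 71 to 101 in Plcg2 KO het males against 64 to 93 in 5xFAD males. At 27 counts the counting error alone is 19.2%. The 5xFAD females, lowest in Kcnd1, were also the group with the lowest total counts and the lowest neuron marker level, and the part of either in the differences of Kcnd1, Kcnd2 and Kcnq3 among females was not tested.

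**Figure D2:**
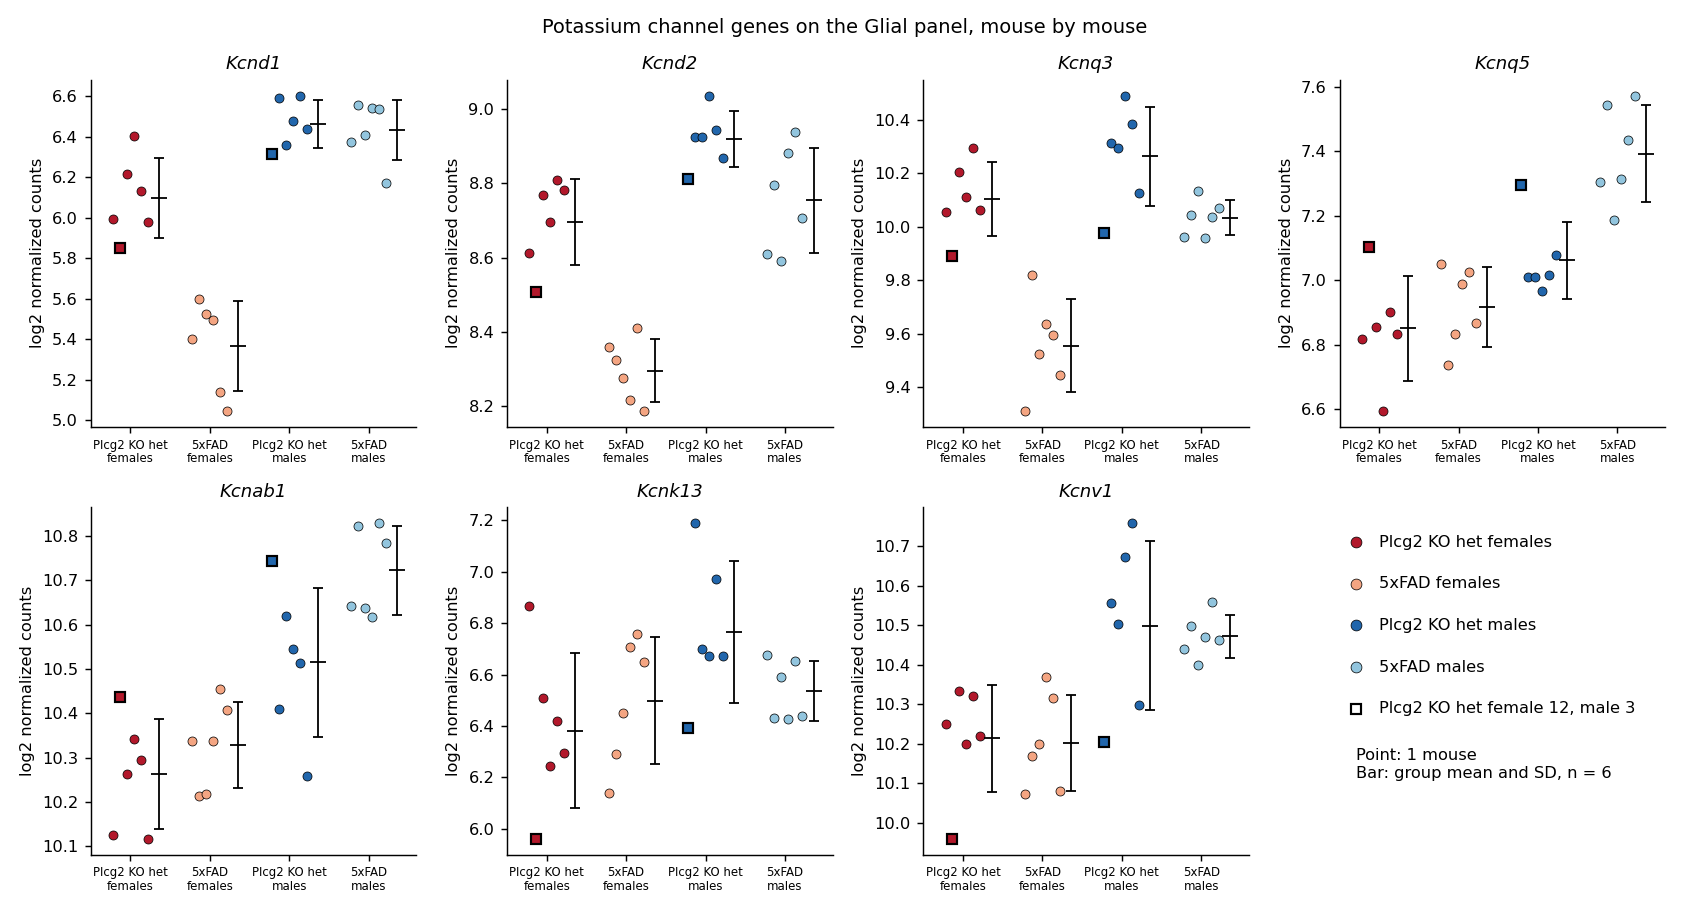
Log2 normalized counts (y axis) of the 7 potassium channel genes in each mouse of the Glial panel by group (x axis); points are mice, bars give the group mean and SD (n = 6), and squares mark Plcg2 KO het female 12 and male 3. In females the points of Kcnd1, Kcnd2 and Kcnq3 do not overlap between the genotypes, and in males the points of all 7 genes do. The share of all genes without such overlap was not counted. Of all genes 54.8% were called in females and 40.7% in males.

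**Figure D3:**
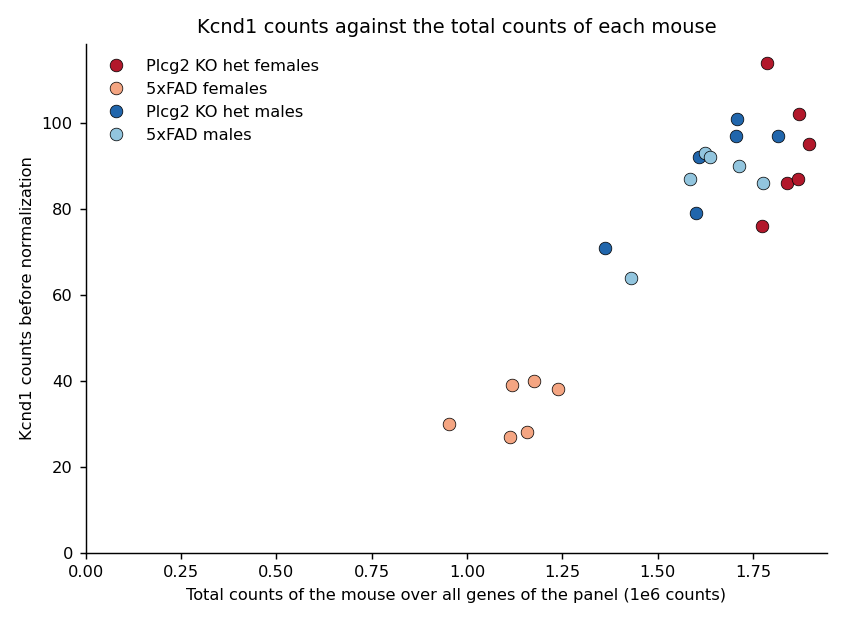
Kcnd1 counts before normalization (y axis) against the total counts of the same mouse over all genes of the panel, in units of 1e6 counts (x axis), 1 point per mouse, coloured by group. The 6 5xFAD females lie apart at 27 to 40 Kcnd1 counts and the lowest totals.

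Kcnd2, whose channel dominates the A-type current of pyramidal cell dendrites, was higher in both sexes. It ran from 8.51 to 8.81 with a median of 8.73 in Plcg2 KO het females, against 8.19 to 8.41 with a median of 8.30 in 5xFAD females. The male values ran from 8.81 to 9.04 with a median of 8.93 in Plcg2 KO het mice, against 8.59 to 8.94 with a median of 8.75 in 5xFAD mice. The female groups did not overlap, and in males 2 of 6 Plcg2 KO het mice lay above every 5xFAD mouse. The difference was 0.28 ± 0.046 over both sexes (adjusted p = 2.05e-05), and all 12 Plcg2 KO het mice lay above the 5xFAD mean of their sex. It was 0.40 ± 0.065 in females (adjusted p = 2.45e-05) and 0.16 ± 0.065 in males (adjusted p = 0.0452). The call in males sat at the threshold. It ended when any 1 of 10 mice was left out, with adjusted p up to 0.107: Plcg2 KO het males 10, 11, 13 and 46, Plcg2 KO het female 18, 5xFAD males 1177, 1181, 1182 and 1270, and 5xFAD female 1190. The same happened with each sex fitted alone (adjusted p = 0.0773) and with the trend and robust settings of limma (adjusted p = 0.0525).

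Kcnq3 and Kcnq5 encode pore subunits of M-current channels, and they moved in opposite directions. Kcnq3, a main subunit of the M-current in cortical neurons, ran from 9.89 to 10.29 with a median of 10.09 in Plcg2 KO het females, against 9.31 to 9.82 with a median of 9.56 in 5xFAD females. Males ran from 9.98 to 10.49 with a median of 10.30 in Plcg2 KO het mice, against 9.96 to 10.13 with a median of 10.04 in 5xFAD mice. All 6 Plcg2 KO het females exceeded every 5xFAD female, 4 of 6 Plcg2 KO het males exceeded every 5xFAD male, and the lowest Plcg2 KO het mice were female 12 and male 3.

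Kcnq3 had the largest difference over both sexes among the 7 genes, 0.39 ± 0.060 (1.31-fold, adjusted p = 1.21e-05, 11 of 12 Plcg2 KO het mice above the 5xFAD mean of their sex). The difference was 0.55 ± 0.085 in females (adjusted p = 1.55e-05) and 0.23 ± 0.085 in males (adjusted p = 0.0351). The male call ended when any 1 of Plcg2 KO het males 10, 11, 13 and 46 or 5xFAD males 1177, 1181, 1268 and 1269 was left out (adjusted p up to 0.0964). Without Plcg2 KO het female 12 and male 3 together the male difference was 0.29 (adjusted p = 0.0033).

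Kcnq5, of the same family and broadly expressed in cortex, ran from 6.59 to 7.10 with a median of 6.84 in Plcg2 KO het females, against 6.74 to 7.05 with a median of 6.93 in 5xFAD females. Among males the values ran from 6.97 to 7.29 with a median of 7.01 in Plcg2 KO het mice, against 7.19 to 7.57 with a median of 7.37 in 5xFAD mice. The females overlapped, while in males 5 of 6 Plcg2 KO het mice lay below every 5xFAD mouse and male 3 alone lay among them. Kcnq5 fell by 0.20 ± 0.057 over both sexes (adjusted p = 0.00487), with 11 of 12 Plcg2 KO het mice below the 5xFAD mean of their sex. It fell by 0.33 ± 0.081 in males (adjusted p = 0.00325) and differed by -0.07 ± 0.081 in females (adjusted p = 0.506). Without a sex term the call over both sexes ended (adjusted p = 0.0943).

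Kcnab1 and Kcnv1 encode subunits that act on partner channels. Kcnab1, a cytoplasmic beta subunit that speeds the inactivation of Kcna channels, ran from 10.12 to 10.44 with a median of 10.28 in Plcg2 KO het females, against 10.21 to 10.45 with a median of 10.34 in 5xFAD females. The male values ran from 10.26 to 10.74 with a median of 10.53 in Plcg2 KO het mice, against 10.62 to 10.83 with a median of 10.71 in 5xFAD mice. Both sexes overlapped, and 4 of 6 Plcg2 KO het males lay below every 5xFAD male.

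Kcnab1 fell by 0.14 ± 0.052 over both sexes (adjusted p = 0.0273), with 9 of 12 Plcg2 KO het mice below the 5xFAD mean of their sex, and by 0.21 ± 0.073 in males (adjusted p = 0.0288). In females it differed by -0.06 ± 0.073 (adjusted p = 0.468). The call over both sexes ended without Plcg2 KO het female 8 (adjusted p = 0.0509), female 51 (adjusted p = 0.0518) or male 48 (adjusted p = 0.0516), without a sex term (adjusted p = 0.214), under quantile normalization (-0.07, adjusted p = 0.239) and under voom on the counts (-0.10, adjusted p = 0.0848). The male call ended without Plcg2 KO het male 10 or 48 or 5xFAD male 1181, 1269 or 1270 (adjusted p up to 0.0763), with each sex fitted alone (adjusted p = 0.0575), under median centring (adjusted p = 0.0703) and under quantile normalization (adjusted p = 0.237).

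Kcnv1 encodes a silent subunit that forms no channel alone and alters the channels it joins. It ran from 9.96 to 10.33 with a median of 10.23 in Plcg2 KO het females, against 10.07 to 10.37 with a median of 10.19 in 5xFAD females. Males ran from 10.20 to 10.76 with a median of 10.53 in Plcg2 KO het mice, against 10.40 to 10.56 with a median of 10.47 in 5xFAD mice. The groups overlapped in both sexes, and the Plcg2 KO het males reached both above and below all 5xFAD males. The difference was 0.02 ± 0.058 over both sexes (95% confidence interval -0.10 to 0.14, adjusted p = 0.787) and did not pass in females (0.01 ± 0.082) or in males (0.03 ± 0.082).

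Kcnk13 encodes the tandem-pore potassium channel that sets the resting potential of mouse microglia and is needed for their surveillance of tissue and for inflammasome activation. It ran from 5.96 to 6.86 with a median of 6.36 in Plcg2 KO het females, against 6.14 to 6.76 with a median of 6.55 in 5xFAD females. In males it ran from 6.39 to 7.19 with a median of 6.69 in Plcg2 KO het mice, against 6.43 to 6.68 with a median of 6.52 in 5xFAD mice. Both sexes overlapped, and female 12 and male 3 were again the lowest Plcg2 KO het mice.

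The difference of Kcnk13 was 0.06 ± 0.097 over both sexes (95% confidence interval -0.14 to 0.26, adjusted p = 0.629), -0.12 ± 0.14 in females (adjusted p = 0.485) and 0.23 ± 0.14 in males (adjusted p = 0.173). The males passed without female 12 and male 3 together (0.31, adjusted p = 0.0455) and with limma's array weights, which weigh down deviating mice (0.32, adjusted p = 0.0221). Counts before normalization were 82 to 157 in Plcg2 KO het females against 50 to 88 in 5xFAD females, and 75 to 153 in Plcg2 KO het males against 77 to 106 in 5xFAD males. Of 8 microglia markers 2 were called higher and 1 lower over both sexes. Their mean level ran from 9.05 to 9.32 in Plcg2 KO het females against 8.72 to 9.38 in 5xFAD females. In males it was 8.89 to 9.18 in Plcg2 KO het mice against 8.93 to 9.25 in 5xFAD mice. The groups overlapped in this mean, which joins opposite shifts. Tmem119 (0.52 ± 0.12) and Csf1r (0.32 ± 0.062) were called higher and Aif1 (-0.77 ± 0.099) lower. The part of these marker shifts in the values of Kcnk13 was not tested.

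Whether the genotype difference itself differed between the sexes was tested as the difference in females minus that in males. Of the 7 genes 1 passed, Kcnd1, at 0.70 ± 0.14 (adjusted p = 0.00138), with 21.9% of all genes called in this test. With quantile normalization it was 0.43 (adjusted p = 0.0561). Kcnq3 (0.32 ± 0.12, adjusted p = 0.059), Kcnd2 (0.24 ± 0.091, adjusted p = 0.0641) and Kcnq5 (0.26 ± 0.11, adjusted p = 0.0989) did not pass, and neither did Kcnk13 (-0.35 ± 0.19, adjusted p = 0.205), Kcnab1 (0.14 ± 0.10, adjusted p = 0.338) or Kcnv1 (-0.01 ± 0.12, adjusted p = 0.947). With array weights Kcnq3, Kcnd2 and Kcnq5 passed as well (adjusted p = 0.0245, 0.0194 and 0.0208). Kcnq3 also passed with trend and robust settings (adjusted p = 0.0458), with voom (adjusted p = 0.0198), and without Plcg2 KO het female 12, Plcg2 KO het male 13 or 5xFAD female 1189 (adjusted p = 0.0317, 0.0314 and 0.0209). Kcnd2 passed without Plcg2 KO het female 12, Plcg2 KO het male 13, 5xFAD male 1177 or 5xFAD male 1182, and Kcnq5 without Plcg2 KO het female 18 or male 3, all at adjusted p between 0.0284 and 0.0492. Without female 12 and male 3 together Kcnq3 (0.30, adjusted p = 0.0367) and Kcnd2 (0.25, adjusted p = 0.033) passed. Kcnk13 passed with quantile normalization (-0.55, adjusted p = 0.04).

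All 7 channel genes were lower in females than in males over both genotypes, but 76.2% of all genes were called lower and the median of all genes was -0.27, so most of the panel was lower in females. Relative to that median Kcnd1 was at -0.45 and the other 6 genes lay between -0.08 and 0.06. Kcnd1, an X-linked gene in the mouse, was thus the farthest of the 7 from the common shift between the sexes, and its 5xFAD females carried the lowest values. With each mouse centred on its median 2 of the 7 genes were called for sex, with quantile normalization 2 and with voom 1. Of all 757 genes these settings called 106 higher and 209 lower in females, 134 and 159, and 151 and 175, in that order.

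The Neuropathology panel, run on the same 24 mice and normalized on its own, measured 760 genes, among them the potassium channel genes Kcna1 and Kcnj10, which are described here. Over both sexes Kcnj10 was higher and Kcna1 was lower in Plcg2 KO het mice, where 35.5% of the panel's genes were called higher and 36.1% lower. In females 268 of the 760 genes were called higher and 144 lower, and in males 140 higher and 291 lower. The median log2 value of a mouse, averaged by group, was 8.59 in Plcg2 KO het females against 8.52 in 5xFAD females. In males it was 8.86 in Plcg2 KO het mice against 9.08 in 5xFAD mice. Total counts on this panel were 1220459 to 1603006 in Plcg2 KO het females against 528033 to 651615 in 5xFAD females, and 1119119 to 1587858 in Plcg2 KO het males against 865095 to 1274953 in 5xFAD males.

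Kcnj10, the inward rectifier with which astrocytes and oligodendrocytes take up potassium released by firing neurons, ran from 10.29 to 10.63 with a median of 10.42 in Plcg2 KO het females, against 9.83 to 10.14 with a median of 10.04 in 5xFAD females. In males it ran from 10.56 to 10.83 with a median of 10.67 in Plcg2 KO het mice, against 10.37 to 10.50 with a median of 10.44 in 5xFAD mice. Among the channel genes described here it was the only gene whose genotypes overlapped in neither sex. The share of all genes of the panel without overlap in either sex was not counted. The difference was 0.33 ± 0.045 (1.25-fold, adjusted p = 2.95e-06, 12 of 12 Plcg2 KO het mice), with 0.41 ± 0.064 in females (adjusted p = 2.56e-05) and 0.25 ± 0.064 in males (adjusted p = 0.00249). Averaged over 5 astrocyte markers of this panel the level ran from 11.06 to 11.30 in Plcg2 KO het females against 10.98 to 11.18 in 5xFAD females; in males it was 11.23 to 11.46 in Plcg2 KO het mice against 11.24 to 11.48 in 5xFAD mice. The groups overlapped in this mean, which joins opposite shifts: 2 markers were called higher (Aldh1l1 0.43 ± 0.051, Slc1a2 0.16 ± 0.036) and 1 lower (S100b -0.83 ± 0.11). The part of these marker shifts in the difference of Kcnj10 was not tested.

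**Figure D4:**
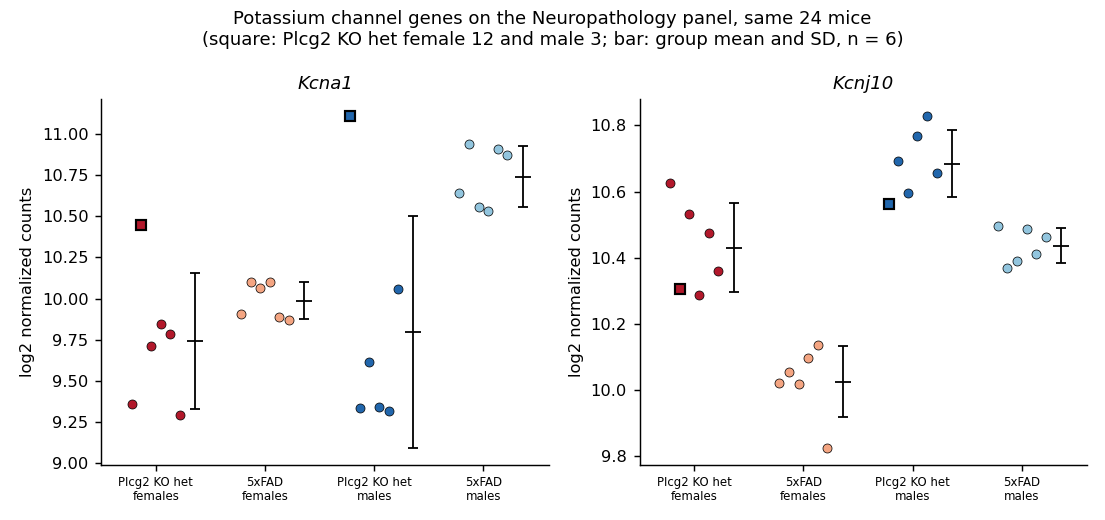
Log2 normalized counts (y axis) of Kcna1 and Kcnj10 in each mouse of the Neuropathology panel by group (x axis); points are mice, bars give the group mean and SD (n = 6), and squares mark Plcg2 KO het female 12 and male 3. In males 5 of 6 Plcg2 KO het mice lie below every 5xFAD mouse for Kcna1, with male 3 at 11.11 above them all.

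Kcna1, a pore subunit of axonal channels on which Kcnab1 acts, ran from 9.31 to 11.11 with a median of 9.48 in Plcg2 KO het males, against 10.53 to 10.94 with a median of 10.76 in 5xFAD males. In females it ran from 9.29 to 10.45 with a median of 9.75 in Plcg2 KO het mice, against 9.87 to 10.10 with a median of 9.98 in 5xFAD mice. In each sex 5 of 6 Plcg2 KO het mice lay below every 5xFAD mouse and 1 lay above all of them, male 3 at 11.11 and female 12 at 10.45. Kcna1 fell by 0.60 ± 0.16 over both sexes (adjusted p = 0.00302, 10 of 12 mice) and by 0.95 ± 0.23 in males (adjusted p = 0.00178), and it differed by -0.25 ± 0.23 in females (adjusted p = 0.371). Without male 3 and female 12 the differences were -0.80, -1.21 and -0.39, and that in females passed (adjusted p = 0.0132). Over all genes, leaving out both mice gave 214 called lower in females, against 144 in the reported fit. With each mouse centred on its median the difference of Kcna1 in males was -0.72 (adjusted p = 0.0037).

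Kcna1 did not pass the test of a difference between the sexes (0.70 ± 0.33, adjusted p = 0.127). It was 0.41 with median centring (adjusted p = 0.332). It passed with array weights (0.93, adjusted p = 0.000607), without Plcg2 KO het male 3 (0.96, adjusted p = 0.00246) and without male 3 and female 12 together (0.82, adjusted p = 0.00179). Of all 760 genes this test called 130 above and 15 below 0 in the reported fit. Without male 3 it called 283 and 38, and without both mice 282 and 29. Kcnj10 did not pass this test in the reported fit (0.16 ± 0.090, adjusted p = 0.204). On this panel 2 of 6 neuron markers were called higher and 3 lower. Their mean ran from 9.91 to 10.56 in Plcg2 KO het females against 10.30 to 10.53 in 5xFAD females; in males it was 10.30 to 11.10 in Plcg2 KO het mice against 10.89 to 11.12 in 5xFAD mice. The part of this lower level, and of the lower totals of 5xFAD females, in the results of Kcna1 was not tested.

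How the channel genes varied from mouse to mouse was described by Pearson correlation over 24 mice after the mean of each of the 4 groups was taken off; the genes share each mouse's library, and 2 mice weigh heavily. On the Glial panel Kcnq3 and Kcnv1 varied most alike (r = 0.76, and 0.60 without female 12 and male 3), ahead of Kcnk13 and Kcnv1 (r = 0.62 and 0.40) and Kcnd2 and Kcnv1 (r = 0.56 and 0.39). Kcnq5 varied with Kcnab1 (r = 0.52 and 0.29) and against Kcnd1 (r = -0.50 and -0.37) and Kcnq3 (r = -0.49 and -0.22). On the Neuropathology panel Kcna1 and Kcnj10 had r = -0.47 (-0.27 without both mice). The 2 genes that were lower by genotype on the Glial panel, Kcnq5 and Kcnab1, were highest in female 12 and male 3 among the Plcg2 KO het mice of their sex, and the 3 that were higher were lowest in them.

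Among the other genes of the panel, those whose values followed Kcnq3 most closely were Dlgap1, B4galt6 and Pdha1 (r = 0.86, 0.86 and 0.85), and Dlgap1, a scaffold protein gene of excitatory synapses, also led for Kcnv1 (r = 0.85), before Serinc3 and Pdha1 (0.84 and 0.82). Kcnd2 went with Lrrc7, Grk3 and Pdpk1 (r = 0.68, 0.66 and 0.66). Kcnd1 went with Prkab2 and Cux2 (r = 0.70 and 0.70). Kcnk13 went with Atp5pb and Hacd3 (r = 0.83 and 0.79). Kcnab1 went with Rab1a, Prkar1a and Cul2 (r = 0.86, 0.85 and 0.84), and Kcnq5 with Scoc, Skp1a and Ermn (r = 0.77, 0.77 and 0.75). The most opposed gene was Mtor for Kcnq5 (r = -0.80), Csf1 for Kcnab1 (r = -0.73), Pik3cb for Kcnv1 (r = -0.73), Acsl3 for Kcnq3 (r = -0.70), Parp2 for Kcnk13 (r = -0.67), Tnfrsf17 for Kcnd1 (r = -0.62) and Lag3 for Kcnd2 (r = -0.54). Without female 12 and male 3 these correlations lay between 0.54 and 0.83 for the like genes and between -0.71 and -0.37 for the opposed ones.

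Genes that work beside potassium channels were counted in 6 lists, over both sexes on the Glial panel and against the same 33.8% called higher and 26.7% called lower. Of 11 ion pumps and transporters, which restore the gradients that channels use, 9 were higher and 0 lower, with a median of 0.26. On the Neuropathology panel, in the same mice, 4 genes of this list were measured, of which 1 was higher and 2 were lower, with a median of -0.07. Slc12a5, the chloride exporter coupled to potassium in neurons, rose by 0.49 ± 0.10 on the Glial panel (adjusted p = 0.000277) but fell by 0.20 ± 0.073 on the Neuropathology panel (adjusted p = 0.0213). The latter fall was in males (-0.45), with 0.06 in females. Again on the Glial panel, Slc12a2, the importer of chloride with sodium and potassium, rose by 0.47 ± 0.073 (adjusted p = 1.21e-05) and the calcium pump gene Atp2b3 by 0.41 ± 0.079 (adjusted p = 0.000122). Of 4 genes of potassium and glutamate uptake by astrocytes 3 were higher and 0 lower, with a median of 0.19, and Aqp4, the water channel beside Kcnj10 on astrocyte endfeet, was at 0.12 ± 0.052 (adjusted p = 0.0552). Of 6 genes that anchor channels 4 were higher and 1 lower, with a median of 0.17. Nrcam (0.35 ± 0.080) and Cntnap1 (0.27 ± 0.071), adhesion molecules of the node of Ranvier and its flanks, rose, and Amigo1, an adhesion molecule that associates with potassium channels, fell by 0.11 ± 0.039 (adjusted p = 0.0182). The call of Amigo1 ended with array weights, with quantile normalization, with voom and without a sex term. Amigo1 was at 0.08 ± 0.043 on the Neuropathology panel (adjusted p = 0.0865).

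Of 5 other ion channel genes 2 were higher, the calcium release channel gene Itpr1 (0.27 ± 0.050) and the sodium channel gene Scn8a (0.35 ± 0.068), and 1 was lower, the sodium channel gene Scn1a (-0.18 ± 0.045), with a median of 0.11. Of 9 receptor and G protein genes that act on channels 4 were higher and 1 lower, with a median of 0.12, and the muscarinic receptor gene Chrm2 rose by 0.28 ± 0.075 (adjusted p = 0.00264). Of 15 ionotropic receptor genes 2 were higher and 8 lower, with a median of -0.08, among them the kainate receptor gene Grik2 (-0.39 ± 0.058) and the AMPA receptor gene Gria4 (-0.23 ± 0.047). Gria4 fell on the Neuropathology panel too (-0.32 ± 0.054), but Grik2 was at 0.05 ± 0.069 there (adjusted p = 0.501). On the Neuropathology panel the counts were 6 higher and 3 lower of 13 other ion channel genes (median 0.16), 6 and 8 of 19 ionotropic receptor genes (median 0.04), 10 and 5 of 18 receptor and G protein genes (median 0.20), 2 and 3 of 6 anchoring genes (median -0.01) and 1 and 0 of 2 astrocyte uptake genes (median 0.13). The plot by list sets the Glial values beside the channel genes, whose median of 0.06 lay between that of the receptors and that of the pumps.

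**Figure D5:**
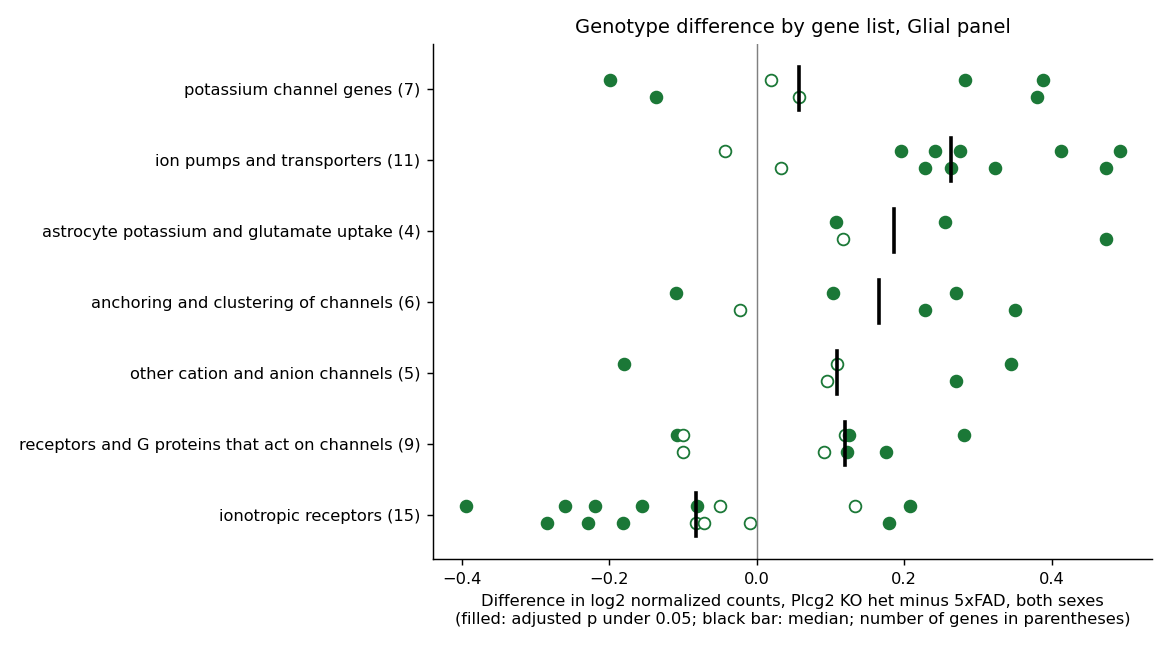
Genotype difference over both sexes in log2 normalized counts (x axis) for the 7 potassium channel genes and for 6 lists of related genes on the Glial panel (y axis, with the number of genes); each point is a gene, filled where its adjusted p is under 0.05, and the black bar is the list's median. Of the 11 pumps and transporters 9 are called higher, and of the 15 ionotropic receptors 8 are called lower.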

How the data were processed

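The log2 normalized counts of both panels were used as deposited by the authors. How they were normalized is not given in the sources used here. Dividing a mouse's values by 1 common factor gave whole numbers (100% of them within a tolerance of 0.05), taken as the counts before normalization. The 24 mice carry separate animal numbers. Per panel, 4 group means were fitted by limma 3.58.1 (R 4.3.3; lmFit and eBayes) over all 757 or 760 genes, with Benjamini-Hochberg adjustment over them. No gene was removed. Every potassium channel gene is named; for likeness, up to 3 most like genes and the most opposed one; and from each list up to 4 genes of smallest p. Some genes that these rules take are not reported here. The members, lists and tests were chosen with earlier results of these data known. Tried as alternatives were array weights, trend and robust settings, quantile normalization, median centring, dim genes left out, voom on the counts, no sex term, each sex alone, leaving out mice, and, chosen after seeing the data, values under 20 set to 20. The fit was tested on simulated data.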

Additional observations from a re-analysis of the deposited data

Results flagged for a closer look

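In Plcg2 KO het males, male 3 had a Kcnq5 value of 7.29 while the other 5 lay between 6.97 and 7.08, and in Plcg2 KO het females, female 12 had a Kcnv1 value of 9.96 while the other 5 lay between 10.20 and 10.33. In both cases the gap to the nearest mouse was large for the range of the group (Dixon's test at the 95% level). Of 40 groups of 6 mice examined this way over the potassium channel genes of both panels, 2 were picked out. The test picks out 5% of independent groups, but these groups reuse the same 24 mice, so that rate cannot be applied to them. Both values belong to the 2 mice that deviated from their groups in many genes.

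For Kcnd1 the genotype difference differed between the sexes, by 0.70 ± 0.14 (females minus males, adjusted p = 0.00138). It was 0.73 in females, where 6 of 6 Plcg2 KO het mice were higher, and 0.03 in males, where 4 of 6 were higher than the 5xFAD mean.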

How the results depend on the processing

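No paired analysis was possible because the genotype and sex groups share no animal numbers; numbers recur only between the panels, where 21 of 24 mice matched best to their own number in their group. Of 659 alternative values for 20 called results, 622 kept their direction and call and 37 kept their direction and lost the call. Of 651 values for 20 uncalled results, 602 stayed uncalled with their direction, 32 passed and 17 changed sign.

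The count of 3 channel genes called higher over both sexes, and of 3 called in females stayed within 1.5 times under every alternative run. The count of 2 called lower was 0 without a sex term, 1 with quantile normalization, 1 with voom, and 1 to 2 when each mouse was left out. Of all 757 genes 202 were called lower in the reported fit, 142 without a sex term, 212 with quantile normalization and 177 with voom. The count of 4 called in males was 2 with each sex fitted alone and 1 to 4 when each mouse was left out. Over all genes, each sex fitted alone gave 108 higher and 171 lower in males, against 130 and 178 in the reported fit. The count of 1 called for the difference between the sexes was 4 with array weights, 2 with trend and robust settings, 2 with voom, 3 without female 12 and male 3, and 1 to 3 when each mouse was left out. Over all genes the reported fit called 115 above and 51 below 0 for this difference. Array weights gave 152 and 104, trend and robust settings 124 and 54, voom 137 and 72, and leaving out both mice 146 and 85. The count of 7 called for sex was 2 with median centring, 2 with quantile normalization and 1 with voom.

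Signs changed in uncalled differences alone. Leaving out each mouse in turn gave Kcnv1 -0.0066 to 0.049 over both sexes, -0.014 to 0.063 in females, -0.026 to 0.085 in males and -0.073 to 0.038 for the difference between the sexes, and gave Kcnd1 -0.020 to 0.062 in males. With median centring Kcnv1 in females was -0.049. The difference between the sexes for Kcnj10 was -0.13 with median centring and -0.031 with quantile normalization. Among the related lists, a fit without a sex term gave 5 lower ionotropic receptors (8 in the report), 2 higher anchoring genes (4) and 2 higher receptor and G protein genes (4), and array weights gave 4 higher other channels (2). The causes were not tested. Counts of 27 to 40 limit Kcnd1 in 5xFAD females and counts of 50 to 88 limit Kcnk13 there.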

Other observations

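Several genes of neuronal excitability were on both panels, which assayed the same 24 mice, and their genotype differences over both sexes did not always match. Slc8a1, the sodium-calcium exchanger gene, rose by 0.26 ± 0.074 on the Glial panel (adjusted p = 0.00397) and fell by 0.74 ± 0.19 on the Neuropathology panel (adjusted p = 0.00148). Slc12a5 rose by 0.49 ± 0.10 on the Glial panel and fell by 0.20 ± 0.073 on the Neuropathology panel (adjusted p = 0.0213). By sex, Slc12a5 was at 0.06 in females and -0.45 in males on the Neuropathology panel. With the Glial value before the Neuropathology value, Itpr1 rose on both (0.27 ± 0.050 and 0.16 ± 0.041), as did Cntnap1 (0.27 ± 0.071 and 0.32 ± 0.064) and Atp2b3 (0.41 ± 0.079 and 0.34 ± 0.067), and Scn1a fell on both (-0.18 ± 0.045 and -0.26 ± 0.054). These genes were chosen after their values were seen. Whether the panels' probes read the same transcripts was not tested here, so no level from the Neuropathology panel was set against a level from the Glial panel.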
